A study of Mus musculus with 24 samples.

Results

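The nuclear-encoded subunits of the mitochondrial respiratory chain and ATP synthase were followed in differentiating C2C12 cells. Members were taken by gene symbol: symbols that start with Nduf and a letter a, b, c, s or v followed by a digit, Sdha to Sdhd, symbols that start with Uqcr, Cyc1, the Cox4 to Cox8 series, and symbols that start with Atp5. Assembly factors named Ndufaf and pseudogenes were left out. The rule found 82 genes of 14693 in the count table, and 82 of 82 passed the filter on low counts, with 12994 genes tested in all. Complex I had 38 members, complex II 4, complex III 9, complex IV 14 and complex V, the ATP synthase, 17. Ndufa4 is counted with complex I here by its symbol, although its protein is now placed in complex IV, and Cox7a2l, an assembly factor of respiratory supercomplexes, was taken with complex IV.

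C2C12 is a mouse myoblast line, labelled wild type, that fuses into myotubes when serum is reduced. The growth medium held 10% fetal bovine serum, and all 6 groups were switched to 2% horse serum to differentiate. During differentiation they received vehicle, 100 µM linoleic acid (LA, 18:2n6) carried on bovine serum albumin, or recombinant mouse ANGPTL4, a secreted inhibitor of lipoprotein lipase, at 10 ng/mL. They were collected at day 2 or day 6, which gave 6 groups of 4 libraries: vehicle, LA and ANGPTL4 at each day. It was not stated whether replicates came from separate cultures or what the vehicle held, so p-values measure the spread between these libraries, which may be technical. All libraries come from 1 cell line, and its myogenic markers were present: desmin (Des) had group means of 1806 CPM (the counts-per-million level) or more, and 10 of 10 myogenic markers passed the filter on low counts.

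The respiratory chain passes electrons from NADH (complex I) and succinate (complex II) through ubiquinone to complex III, on to cytochrome c and to complex IV, which reduces oxygen. Complexes I, III and IV pump protons across the inner mitochondrial membrane, and the ATP synthase uses that gradient to make ATP. A few core subunits are encoded in mitochondrial DNA and all others in the nucleus. Muscle depends on the chain for sustained contraction, respiratory capacity grows as myoblasts become myotubes, and striated muscle uses its own isoforms of some complex IV subunits. The table listed 0 mitochondrially encoded genes, so the nuclear side alone is described.

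Upstream sequences are shown first, because the members are known for shared regulation by the factors NRF1 and NRF2 (GABP, of the ETS family), and the muscle isoforms for regulation during myogenesis. Of the 82 members, 67 matched RefSeq's table of promoter windows (GRCm38.p6, 250 bases before to 50 after the start). Both strands were searched, and a match of one motif was counted whether or not it overlapped another. The NRF1 letters (GCGCA, any base, then GCGC) were found in 25.4% of these members and in 10.6% of the 11513 genes of the count table in the same windows. The ETS letters CCGGAAG were in 25.4% of members and 18.4% of the genes, the YY1 letters AAGATGGCG in 10.4% and 3.19%, and the E-box letters CANNTG, which myogenic factors can bind, in 70.1% and 68.3%. The median GC content of the windows was 58.3% for members and 60.3% for the genes. A match describes the letters and is not evidence of binding. In the 250 bases before the start, 3 members held both NRF1 and ETS letters, which are in capitals in the first 3 sequences below. In the last 2, of muscle isoforms whose values are given further on, capitals mark the E-box, and neither NRF1 nor ETS letters were found in those 250 bases.
Atp5h (chr11:115419920-115420169, minus strand): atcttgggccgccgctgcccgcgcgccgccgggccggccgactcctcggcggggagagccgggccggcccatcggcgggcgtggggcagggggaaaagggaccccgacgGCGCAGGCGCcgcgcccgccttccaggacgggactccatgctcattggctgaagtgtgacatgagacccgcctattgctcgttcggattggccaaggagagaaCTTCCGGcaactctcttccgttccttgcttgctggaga
Cox6a1 (chr5:115348959-115349208, minus strand): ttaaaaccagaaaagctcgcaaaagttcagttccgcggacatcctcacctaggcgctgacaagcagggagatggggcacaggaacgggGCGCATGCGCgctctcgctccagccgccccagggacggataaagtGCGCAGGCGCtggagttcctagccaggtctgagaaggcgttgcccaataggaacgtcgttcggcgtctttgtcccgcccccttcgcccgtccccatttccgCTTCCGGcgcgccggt
Sdhd (chr9:50603850-50604099, minus strand): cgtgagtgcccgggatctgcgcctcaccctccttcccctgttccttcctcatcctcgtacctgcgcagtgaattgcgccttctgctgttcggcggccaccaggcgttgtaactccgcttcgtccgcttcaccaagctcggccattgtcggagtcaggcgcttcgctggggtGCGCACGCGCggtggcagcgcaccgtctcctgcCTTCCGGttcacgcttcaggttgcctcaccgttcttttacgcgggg
Cox7a1 (chr7:30183921-30184170, plus strand): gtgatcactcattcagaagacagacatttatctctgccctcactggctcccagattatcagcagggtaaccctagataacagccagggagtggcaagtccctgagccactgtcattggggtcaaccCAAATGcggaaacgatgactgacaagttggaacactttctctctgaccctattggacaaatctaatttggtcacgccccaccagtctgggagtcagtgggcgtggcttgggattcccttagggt
Cox8b (chr7:140900447-140900696, minus strand): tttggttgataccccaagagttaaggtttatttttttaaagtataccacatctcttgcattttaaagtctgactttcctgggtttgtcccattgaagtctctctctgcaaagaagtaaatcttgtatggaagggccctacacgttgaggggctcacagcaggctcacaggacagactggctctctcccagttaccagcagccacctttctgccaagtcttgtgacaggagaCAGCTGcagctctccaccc
Atp5h encodes a subunit of the peripheral stalk of ATP synthase, Cox6a1 and Sdhd a subunit of complex IV and the membrane anchor of complex II. Cox7a1 and Cox8b are muscle isoforms of complex IV subunits. In the Cox6a1 window the NRF1 letters occurred at 2 places.

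Library totals ranged from 6100684 to 25049912 counts, with the widest range in LA at day 2 (from 9547787, in replicate 4, against 9850494 to 14529573 with vehicle). Member counts were 0.684 to 0.984% of all counts in a library. The first principal component, 47.5% of the variance, separated the days. On the second component, 9.46%, day 2 LA replicate 3 lay with day 2 ANGPTL4 replicates 1 to 3 (values of -19.3 and -19.7 to -15.2) and away from the other LA libraries, and day 6 ANGPTL4 replicate 1 lay away from its group. Day 2 ANGPTL4 replicate 4 (-4.61) and day 6 LA replicate 4 (-12.2, the others -1.29 to 8.72) also lay away from theirs. Values below are CPM scaled by TMM factors, written in the order of replicates 1 to 4, and log2FC stands for a log2 fold change from edgeR's quasi-likelihood test, called at an adjusted p (Benjamini-Hochberg over all 12994 genes) under 0.05. In bulk RNA, fewer cells of a type and less RNA per cell cannot be told apart.

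At day 2, members were higher with LA than with vehicle in all 5 complexes. Of the 82 members, 55 rose and 0 fell (edgeR, with a median log2FC of 0.45 over the members and 0.0054 over all genes). Over all genes 8.27% rose and 6.82% fell. The call was made for 26 of 38 members of complex I, 3 of 4 of complex II, 5 of 9 of complex III, 10 of 14 of complex IV and 11 of 17 of complex V. The mean of the members' log2 CPM around their mean over all libraries was 0.25, 0.33 and 0.44 in day 2 LA replicates 1 to 3 but -0.19 in replicate 4, against -0.29 to -0.11 with vehicle. Replicate 4 thus lay among the vehicle libraries, above the highest of them for 16 members and below the lowest for 17. Replicates 1, 2 and 3 lay above the highest vehicle library for 66, 74 and 78 members. Without replicate 4 the count that rose was 65, without replicate 3 it was 26, and with the day 2 LA and vehicle libraries alone in the fit it was 7. Without day 2 LA replicate 3 and day 6 ANGPTL4 replicate 1 together it was 24. Here and below, shares over all genes are those of the main fit, not of such alternatives.

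**Figure D1:**
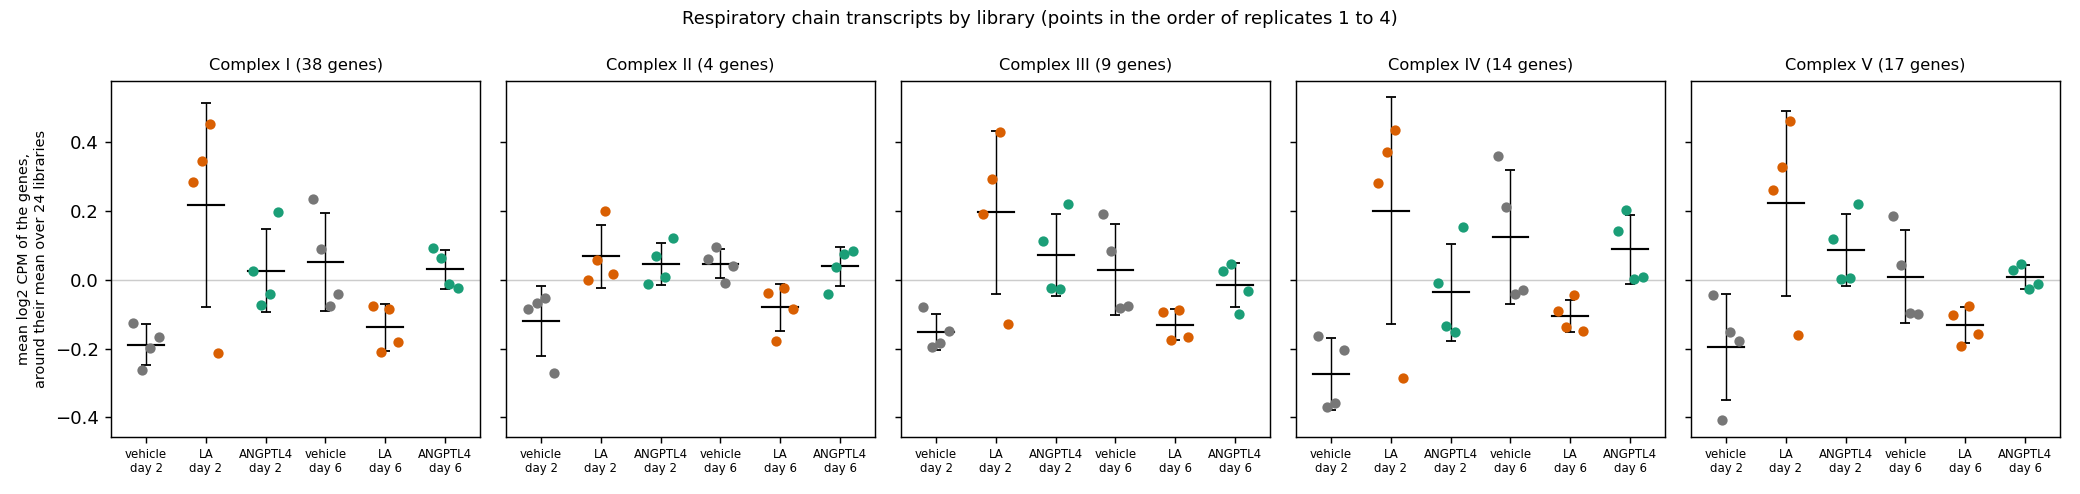
Mean log2 CPM of the members of each complex around their mean over 24 libraries (vertical axis) in each group (horizontal axis). Each point is 1 library, horizontal lines are group means and bars are SD (n = 4). Day 2 LA replicate 4 (the last orange point at day 2) sits with or near the vehicle libraries in all panels but complex II.

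Complex I takes electrons from NADH at its flavin subunit Ndufv1 and carries them through iron-sulfur clusters in Ndufs1, Ndufs7, Ndufs8 and others. Of its 7 nuclear core subunits 2 rose at day 2 with LA (Ndufs3 and Ndufv2), with a median log2FC of 0.15, and of its 31 other members 24 rose, with a median of 0.49. Median annotated transcript lengths were 1623 nt for the 7 and 812 nt for the 31, and fold change went with length, as given further on. Ndufc1, a small accessory subunit of the membrane arm, had 13.5, 12, 13 and 12.7 CPM with vehicle and 27, 26, 30.1 and 14 with LA. All 4 LA libraries were above all 4 vehicle libraries, replicate 4 by little (log2FC 0.97, SE 0.181, adjusted p = 0.00267). Ndufs3, a core subunit of the peripheral arm, had 60.4, 43.3, 59.4 and 45.6 CPM with vehicle and 68.5, 70.9, 71.4 and 60.4 with LA. The lowest LA library was level with the highest vehicle library (log2FC 0.39, SE 0.0857, adjusted p = 0.00434). The Ndufs3 call ended with only the compared groups in the fit (adjusted p = 0.0628) and after a smooth trend of each library over transcript length and GC content was taken out (0.0983). That of Ndufv2 (log2FC 0.20, adjusted p = 0.0204) ended without vehicle replicate 3 (0.080) and without LA replicate 2 (0.0708) or 3 (0.13). Ndufs1, which holds several of the iron-sulfur clusters, had 161, 159.8, 152 and 143 CPM with vehicle and 156, 168, 161 and 154 with LA. The groups overlapped, and its 95% interval of the log2FC was -0.047 to 0.15 (adjusted p = 0.485).

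Complex II oxidises succinate in its flavoprotein Sdha and passes electrons through Sdhb to the membrane anchors Sdhc and Sdhd. Sdha had 281, 295, 266 and 266 CPM with vehicle and 271, 284, 292 and 273 with LA at day 2, with overlapping groups (log2FC 0.015, 95% interval -0.078 to 0.11, adjusted p = 0.865). Sdhb, Sdhc and Sdhd rose by 0.25, 0.24 and 0.25 on the log2 scale (adjusted p = 0.0203, 0.0127 and 0.0102). Each of these 3 calls ended without LA replicate 3 (adjusted p = 0.207, 0.0947 and 0.0746) and without vehicle replicate 4 (0.0839, 0.0719 and 0.0586).

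In complex III, the scaffold proteins Uqcrc1 and Uqcrc2 and the Rieske iron-sulfur protein Uqcrfs1 passed no test at day 2 with LA (log2FC 0.051, 0.064 and 0.19). Cyc1, the cytochrome c1 that hands electrons to cytochrome c, had 118, 112, 121 and 95.5 CPM with vehicle and 128, 133, 149 and 117 with LA. Day 2 LA replicate 4 was within the vehicle range and the others above it (log2FC 0.25, SE 0.068, adjusted p = 0.0145). It was not called without LA replicate 3 (adjusted p = 0.121) and without vehicle replicate 4 (0.0759). Of the small subunits, Uqcrh, Uqcr10, Uqcrq and Uqcr11 rose, by 0.49 to 0.66 on the log2 scale.

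In complex IV, 10 of 14 members, all of them around the catalytic core, rose with LA at day 2, with 1.03 for Cox7c and 1.19 for Cox8b as the highest log2FC of the complex. Cox7a2, the form made in most tissues, had 59, 50.7, 56.4 and 56.8 CPM with vehicle and 81.6, 89.6, 97.1 and 61.9 with LA, with all LA libraries above all vehicle libraries (log2FC 0.58, SE 0.0961, adjusted p = 0.000936). Cox8b, the muscle form, had 1.95, 2.04, 1.11 and 1.15 CPM with vehicle and 3.42, 4.37, 4.47 and 1.53 with LA. LA replicate 4 lay inside the vehicle range and the others above it (log2FC 1.19, SE 0.25, adjusted p = 0.00299). Cox7c had 24.8, 15.5, 25.4 and 24.2 CPM with vehicle and 49.6, 53.7, 54.5 and 18.9 with LA, and its call ended without LA replicate 3 (adjusted p = 0.0104 with it, 0.0518 without). The other 4 passed no test: Cox4i1, a regulatory subunit that binds ATP, Cox7a2l, and the muscle forms Cox6a2 and Cox7a1 (log2FC 0.19, 0.016, 0.16 and 0.62, adjusted p = 0.106, 0.903, 0.512 and 0.295).

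In the ATP synthase, the catalytic head subunits Atp5a1 and Atp5b had log2FC 0.038 and 0.095 at day 2 with LA and passed no test (adjusted p = 0.649 and 0.203, 95% intervals -0.065 to 0.14 and -0.0097 to 0.20). Atp5g1, Atp5g2 and Atp5g3 encode the same subunit c of the rotating ring from 3 genes, and all 3 rose. The Atp5g1 call (log2FC 0.45, adjusted p = 0.00737) ended with only the compared groups in the fit (adjusted p = 0.0576) and without day 2 LA replicate 3 and day 6 ANGPTL4 replicate 1 together (0.0514). Atp5g3 had 188, 164, 186 and 134 CPM with vehicle and 243, 248, 273 and 193 with LA, with no overlap (log2FC 0.52, SE 0.111, adjusted p = 0.00539). Atp5e, the small epsilon subunit of the stalk, had 28.2, 19.2, 23.3 and 19.6 CPM with vehicle and 45.2, 45.8, 53.3 and 25.8 with LA, with LA replicate 4 inside the vehicle range (log2FC 0.95, SE 0.189, adjusted p = 0.00395). With only the compared groups in the fit, neither was called (adjusted p = 0.0628 for Atp5g3 and 0.0701 for Atp5e). The Atp5g2 call (log2FC 0.68, adjusted p = 0.0412) ended without any one of vehicle replicates 1 to 3 or LA replicates 1 to 3 (adjusted p = 0.0555 to 0.156).

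**Figure D2:**
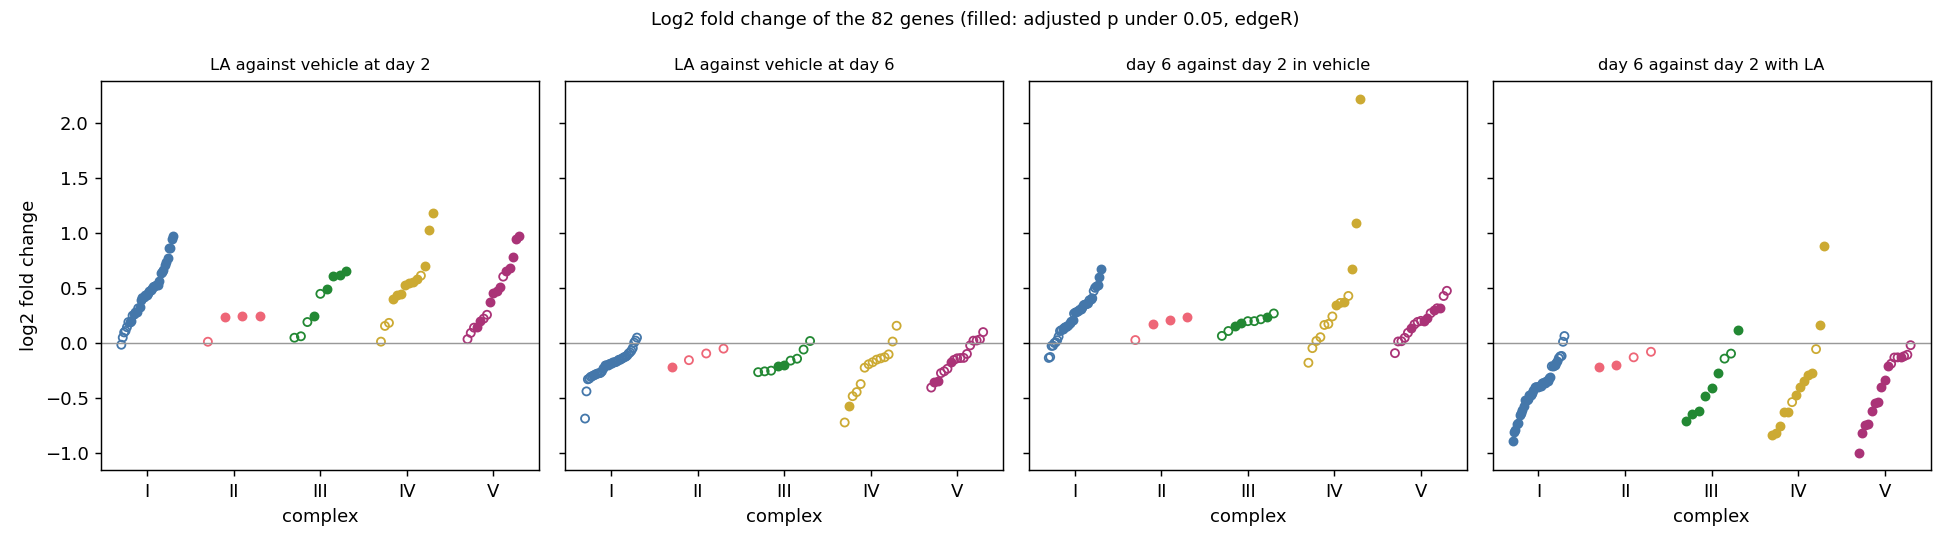
Log2 fold change (vertical axis) of the 82 members, 1 point each, by complex (horizontal axis) in 4 comparisons. Filled points passed the test (adjusted p under 0.05, edgeR), open points did not. Most points lie above 0 for LA against vehicle at day 2 (55 rose) and below 0 for day 6 against day 2 with LA (57 fell).

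A fixed set of 25 members, called core and catalytic here, can be set beside the other members without a test of the difference. The name is loose, because the set also holds Cox4i1, Cox5a and Cox5b, which lie around the catalytic core of complex IV. Cox5a and Cox5b were among its members that rose with LA at day 2. Of the 25, 12 rose with LA at day 2 (median log2FC 0.19), and of the other 57, 43 rose (median 0.52). The 2 sets also differ in annotated transcript length, with medians of 1520 nt for the 25 and 693.5 nt for the others. A part of length in this difference was not tested. Members have short transcripts, with a median annotated length of 861 nt against 3157 nt over all tested genes with a length. Among 79 members with a length, log2FC and length had a Spearman rho of -0.63, and across 12727 genes -0.48. Genes are not independent replicates, and these share the same libraries. Of 47 members under 1000 nt, 33 rose (median 0.52), and of 19 members of 1500 nt or more, 10 rose (median 0.15). With the trends over length and GC content taken out, 28 members rose and the median log2FC was 0.22. The share of all genes that rose in that fit is not given here. Ndufc1 and Cox7a2 were called in that fit too, and in all other alternatives run. Cox8b was called in that fit and in the other alternatives that tested it. Its mean over all libraries was 2.75 CPM, and the filter of 5 CPM in 4 libraries left it out.

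**Figure D3:**
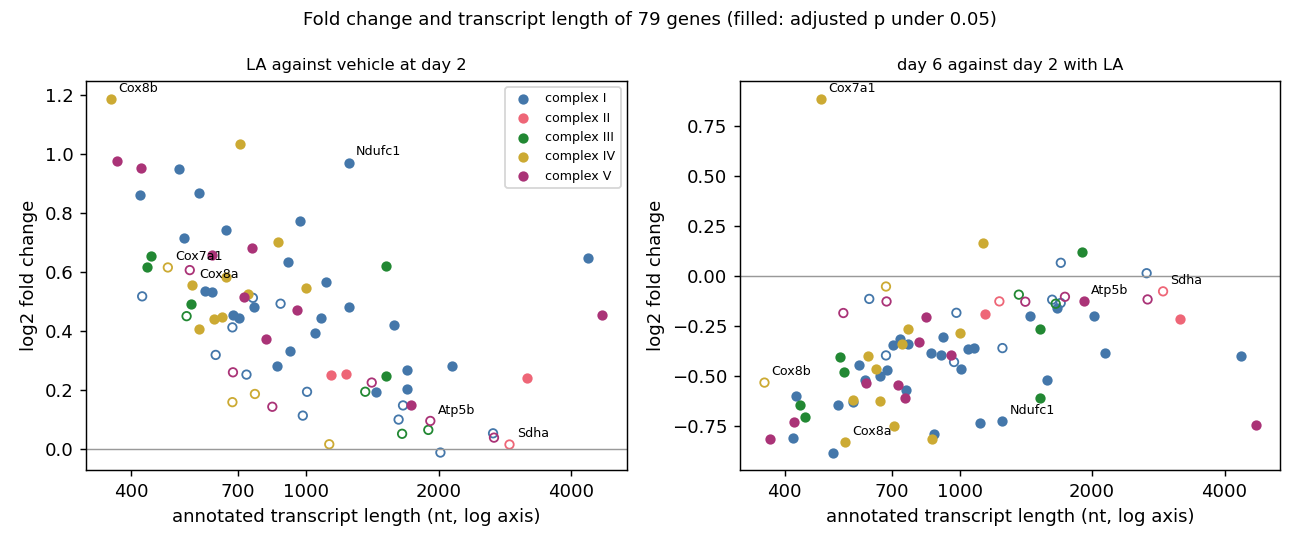
Log2 fold change (vertical axis) of 79 members against annotated transcript length (log axis) for LA against vehicle at day 2 (left) and day 6 against day 2 with LA (right). Filled points passed the test, and colours mark the complexes. Sdha and Atp5b, with long transcripts, lie near 0 and many short ones far from it. Lengths are those of a gene's longest annotated transcript. By this measure the longest members, Atp5g1 and Ndufb2, do not lie near 0 (log2FC 0.45 and 0.65 on the left, -0.75 and -0.40 on the right). Whether their longest transcripts are the ones made in these cells was not tested.

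At day 6 the members called with LA were lower than with vehicle. Of the 82 members, 0 rose and 11 fell with LA (median log2FC -0.17 over the members, -0.0096 over all genes). Over all genes 7.83% rose and 9.38% fell, so the share of members that fell was close to the background. They included Ndufs3, Ndufv1, Sdhc, Uqcrc1, Cyc1, Cox6a2, Atp5b, Atp5g1 and Atp5g3, and 9 of the 11 belong to the core and catalytic set of 25. By annotated transcript length, 9 of 32 members of 1000 nt or more fell, and 2 of 47 under 1000 nt. Without vehicle replicate 1, the vehicle library with the highest member mean (0.23, others -0.072 to 0.10), 2 members fell. Without vehicle replicate 2, LA replicate 2 and LA replicate 4 in turn, 3, 2 and 4 fell, and without other single libraries of these groups 9 to 13. With only the compared groups in the fit 22 fell, and with library totals as the only scaling 5.

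Ndufv1, which holds the flavin where NADH is oxidised, had 124, 118, 114 and 115 CPM with vehicle at day 6 and 103, 97.5, 99.1 and 103 with LA. All LA libraries were below all vehicle libraries (log2FC -0.23, SE 0.0533, adjusted p = 0.00237), and the call was made under every alternative run. Cox6a2, the muscle form of a complex IV subunit, had 25.5, 22, 16.9 and 18.2 CPM with vehicle and 16.2, 13.5, 14.2 and 11.1 with LA. Its LA libraries were all below its vehicle libraries (log2FC -0.57, SE 0.152, adjusted p = 0.0093), and the call ended without vehicle replicate 1 (adjusted p = 0.0561). Atp5b, the catalytic beta subunit, had 1195, 1171, 1074 and 1135 CPM with vehicle and 1014, 959, 1054 and 1034 with LA, without overlap (log2FC -0.17, SE 0.0498, adjusted p = 0.014). Its call ended without vehicle replicate 1 or 2 or LA replicate 2 (adjusted p = 0.0962, 0.0723 and 0.108). Sdha (log2FC -0.092, SE 0.0445, adjusted p = 0.168), Uqcrc2 (log2FC 0.021, SE 0.0464, adjusted p = 0.816) and Cox4i1 (log2FC -0.14, SE 0.0792, adjusted p = 0.272) passed no test.

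Markers of cell types moved at day 6 as well. Of 10 myogenic markers (Acta1, Cdh15, Ckm, Des, Mef2c, Myh3, Mymk, Myod1, Myog and Tnnt3), 10 fell with LA, and their summed level was 10582 to 11661 CPM against 14737 to 15287 CPM with vehicle. Of 10 fibroblast markers tested, 7 rose and 0 fell, with sums of 13133 to 15748 CPM against 10961 to 12519.9 CPM. Of 9 adipocyte markers, Lpl and Pparg were in the table and both rose (sums 34.1 to 56.2 CPM against 8.83 to 14.5 CPM), and the defining markers Adipoq, Fabp4, Plin1, Cidec, Lep, Retn and Cfd were not among its rows. The sums of endothelial markers (3 of 6 in the table) were 1.68 to 2.57 against 1.59 to 2.59 CPM, and those of macrophage markers (4 of 6) 2.19 to 2.56 against 1.97 to 3.15 CPM. At day 2 the myogenic sums were 11425 to 12392 CPM with LA and 12226 to 13548 CPM with vehicle, and the fibroblast sums 8897 to 10041 and 8560.1 to 10136 CPM. The part of these markers in the members' values was not tested.

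The effect of LA was lower at day 6 than at day 2 for most members, by a test of the difference itself. The difference passed as lower for 61 of 82 members and as higher for 0 (median -0.61), and over all genes for 11.0% as lower and 8.68% as higher. It passed for 29 of 38 members of complex I, 3 of 4 of complex II, 7 of 9 of complex III, 12 of 14 of complex IV and 10 of 17 of complex V. Leaving out single libraries gave 44 (without day 6 vehicle replicate 1) to 66 (without day 2 LA replicate 4) members, and removing the length and GC trend gave 40 with a median of -0.35. Cox8b (log2FC -1.63, adjusted p = 0.00179) passed in the alternatives that tested it, and the filter of 5 CPM in 4 libraries left it out. Ndufc1 (log2FC -1.41, adjusted p = 0.0010) and Ndufa3 (-1.28, 0.00659) passed in every alternative run. Cyc1 (-0.45, adjusted p = 0.00167), Sdhc (-0.45, 0.000967), Ndufv1 (-0.37, 0.000699) and Atp5b (-0.27, 0.00759) did so too, with smaller differences. Sdha (-0.11), Ndufs1 (-0.12), Uqcrc2 (-0.043) and Atp5a1 (-0.13) passed no test of it (adjusted p = 0.235, 0.214, 0.687 and 0.174).

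**Figure D4:**
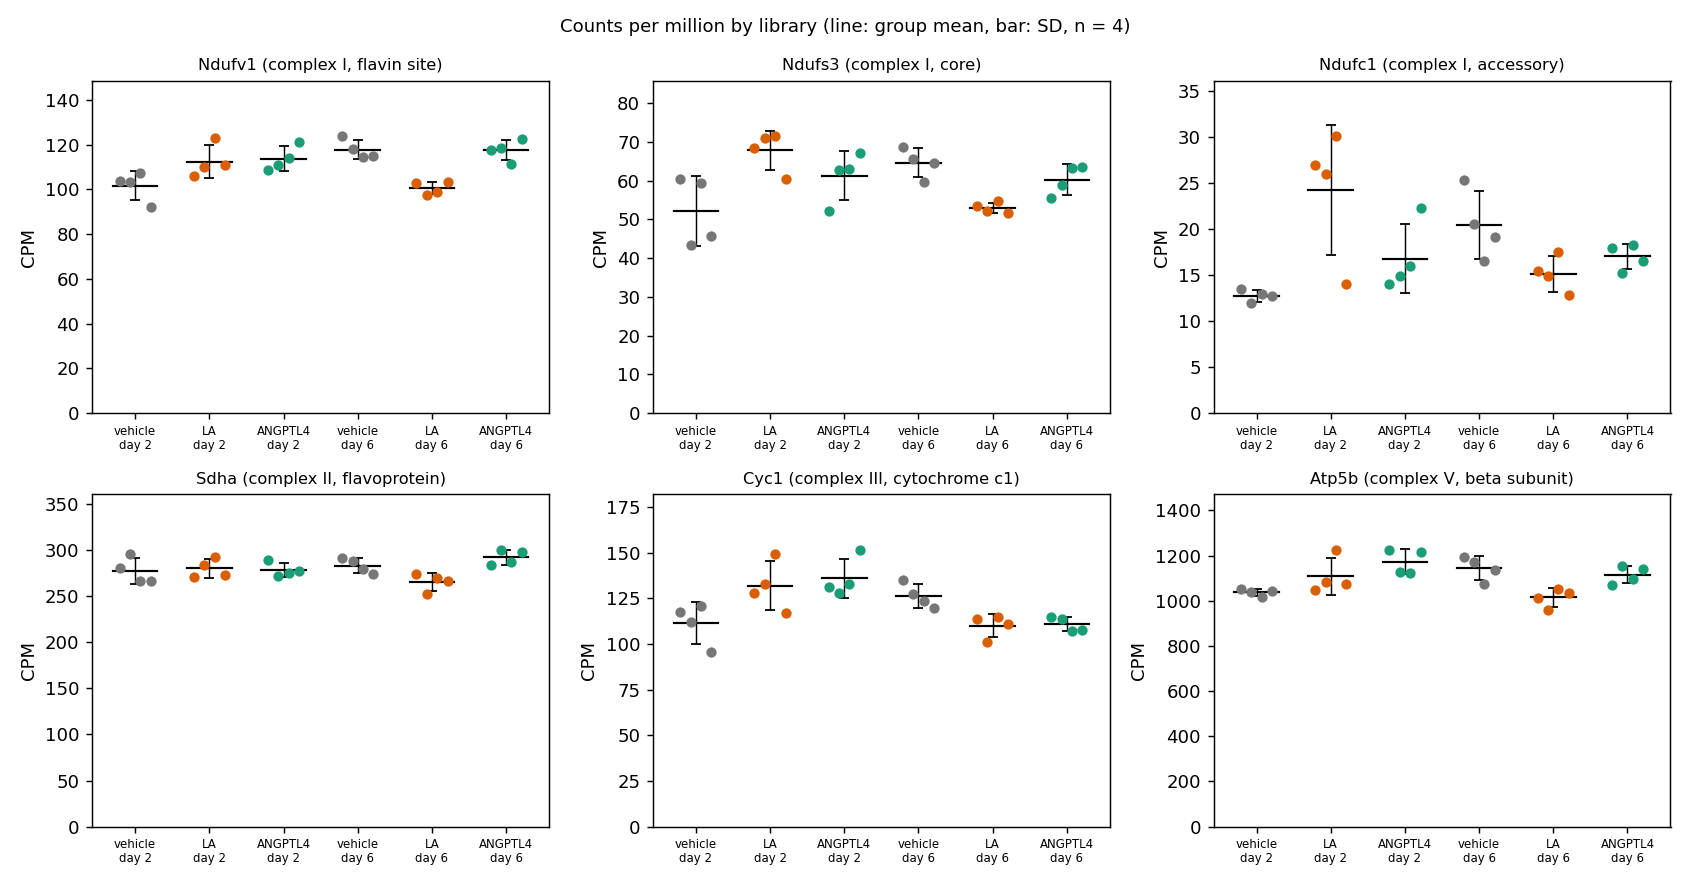
CPM (vertical axis, from 0) of 6 subunits in each group (horizontal axis), 1 point per library in the order of replicates 1 to 4, with the group mean (line) and SD (bar, n = 4). LA lies above vehicle at day 2 for Ndufs3 and Ndufc1 and below it at day 6 for Ndufv1 and Atp5b, and the LA and vehicle groups of Sdha overlap at day 2.

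At day 2 with ANGPTL4, 12 of 82 members rose and 0 fell (median log2FC 0.21, and 0.023 over all genes), where over all genes 3.86% rose and 5.96% fell. The count fell to 4 members without vehicle replicate 2 or 4, to 5 without ANGPTL4 replicate 4, to 7 without any of ANGPTL4 replicates 1 to 3, and to 9 without vehicle replicate 1 or 3. The 12 held 3 members of complex I, 1 of complex II, 3 of complex III, 0 of complex IV and 5 of complex V. Of the core and catalytic set of 25, 8 rose, and of the other 57, 4. By annotated transcript length, 11 of 32 members of 1000 nt or more rose (median log2FC 0.19). Under 1000 nt, 0 of 47 did (median 0.22). A part of length in the counts by complex was not tested. Cyc1 had 118, 112, 121 and 95.5 CPM with vehicle and 131, 128, 133 and 152 with ANGPTL4, without overlap (log2FC 0.29, SE 0.0681, adjusted p = 0.0102), and was called in every alternative run. Uqcrc2, a scaffold protein of complex III, had 125, 131, 124 and 119.9 and 143, 138, 141 and 143 CPM, also without overlap (log2FC 0.18, SE 0.0458, adjusted p = 0.0155). Its call ended without vehicle replicate 3 or 4 or ANGPTL4 replicate 1 or 3 (adjusted p = 0.051, 0.0513, 0.0517 and 0.0511). In complex IV, log2FC ranged from -0.061 to 0.45, and 6 of 14 members had an unadjusted p under 0.05. LA and ANGPTL4 were each set against the same 4 vehicle libraries.

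At day 6, 0 of 82 members were called with ANGPTL4 by edgeR (median log2FC -0.032), with an unadjusted p under 0.05 for 6. DESeq2 called 1 and limma-voom 0. Over all genes 0.0154% rose and 0.00770% fell. Cyc1 had 135, 128, 123 and 119.9 CPM with vehicle and 115, 114, 107 and 108 with ANGPTL4, all lower, but passed no test (log2FC -0.19, SE 0.0709, adjusted p = 0.257). The effect of ANGPTL4 on Cyc1 was lower at day 6 than at day 2 (log2FC -0.48, SE 0.0983, adjusted p = 0.0382), and this was the 1 of 82 members that passed, with 0 higher (0.192% lower and 0.0847% higher over all genes). That call ended with the replicate number as a block (adjusted p = 0.0539), with limma-voom (0.0592), and without any one of several libraries, such as day 6 vehicle replicate 1 (0.108) or day 2 ANGPTL4 replicate 4 (0.103).

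Set against each other at day 2, LA and ANGPTL4 differed for 0 of 82 members by edgeR (median log2FC 0.23, unadjusted p under 0.05 for 38). DESeq2 and limma-voom each called 1. Over all genes 0.0616% were higher and 0.0308% lower with LA. Without day 2 LA replicate 4, 38 members were higher with LA, and without day 2 ANGPTL4 replicate 4, the ANGPTL4 library with the highest member mean (0.19, others -0.055 to 0.047), 4 were. For Cox7a2 the difference was 0.36 (95% interval 0.17 to 0.56, adjusted p = 0.0986) and for Cyc1 -0.038 (-0.18 to 0.10, 0.877).

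At day 6, 9 of 82 members were lower with LA than with ANGPTL4 and 0 higher (median log2FC -0.14), with 7.32% lower and 6.60% higher over all genes. The count fell to 2 members without LA replicate 2, to 4 without LA replicate 4 or ANGPTL4 replicate 2 or 4, to 5 without ANGPTL4 replicate 1 or 3, and to 6 without LA replicate 1 or 3. With only the compared groups in the fit 24 were called. Ndufs1 had 166, 159.8, 161 and 159 CPM with LA and 188, 189.6, 174 and 190.0 with ANGPTL4, without overlap (log2FC -0.20, SE 0.0484, adjusted p = 0.0038). Ndufv1 had 118, 119, 111 and 122 CPM with ANGPTL4, all above its LA libraries given earlier (log2FC -0.22, SE 0.0544, adjusted p = 0.00401). Both calls were made under every alternative run. Sdha had 274, 252, 269 and 266 CPM with LA and 284, 300.0, 287 and 297 with ANGPTL4, with every LA library lower (log2FC -0.14, SE 0.0449, adjusted p = 0.0341), but the call ended with library totals alone (adjusted p = 0.157), without the filter (0.065) and without any 1 library of these groups but LA replicate 1 (from 0.0556 to 0.211). Ndufa9, an accessory subunit near the ubiquinone site, was lower too (log2FC -0.27, SE 0.0679, adjusted p = 0.00619), but not without LA replicate 2 (adjusted p = 0.0636) or ANGPTL4 replicate 4 (0.0573).

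From day 2 to day 6, the members called were mostly higher with vehicle and mostly lower with LA. The change over days with LA minus that with vehicle is the same contrast as the difference tested above, for which 61 members passed as lower. With vehicle, 29 of 82 rose and 0 fell (median log2FC 0.21), where over all genes 25.2% rose and 20.5% fell. With LA, 3 rose and 57 fell (median -0.39), against 23.1% and 20.7% of all genes. With ANGPTL4, 6 rose and 9 fell (median -0.016), against 22.4% and 19.8%. With vehicle, 14 members were called without day 6 replicate 1, 15 without day 6 replicate 2, 16 and 17 without day 2 replicates 2 and 4, and 33 without day 6 replicate 3. With LA, 42 were called without day 2 replicate 3 and 67 without day 2 replicate 4, and 32 with the length and GC trend removed (median -0.17).

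Complex I members that rose with vehicle included Ndufs4, an accessory subunit needed for stable complex I, with 57.2, 52, 48.3 and 46.8 CPM at day 2 and 77.6, 75.5, 70.3 and 69.7 at day 6. No libraries overlapped (log2FC 0.52, SE 0.0713, adjusted p = 4.2e-07). Ndufs4 also rose with ANGPTL4 (log2FC 0.40, SE 0.0711, adjusted p = 2.93e-05), and with LA the difference was 0.067 (95% interval -0.079 to 0.21, adjusted p = 0.457). Ndufs3 rose with vehicle (log2FC 0.32, SE 0.0882, adjusted p = 0.00461) and fell with LA (log2FC -0.36, SE 0.0863, adjusted p = 0.00117), where day 6 libraries had 53.3, 52.2, 54.7 and 51.6 CPM, all below the day 2 LA libraries. With ANGPTL4 its log2FC was -0.016 (adjusted p = 0.902). Ndufc1 rose with vehicle (log2FC 0.68, SE 0.193, adjusted p = 0.00697) to 25.4, 20.5, 16.6 and 19.2 CPM at day 6, above all 4 day 2 libraries, and fell with LA (log2FC -0.73, SE 0.179, adjusted p = 0.00255) to 15.5, 14.9, 17.5 and 12.8 CPM. Ndufs1 rose with ANGPTL4 (log2FC 0.22, SE 0.0479, adjusted p = 0.000374), while Ndufs7, a core subunit with an iron-sulfur cluster next to the ubiquinone site, fell (log2FC -0.30, SE 0.0915, adjusted p = 0.00777).

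In complexes II and III, Sdhc had 83.5, 89.9, 89.4 and 73.2 CPM at day 2 and 101, 104, 96.1 and 95.2 at day 6 with vehicle, a rise without overlap (log2FC 0.24, SE 0.0659, adjusted p = 0.00385), and it fell with LA (log2FC -0.21, SE 0.065, adjusted p = 0.00832). Uqcrc2 rose with vehicle (log2FC 0.16, SE 0.0464, adjusted p = 0.00498), from 125 ± 4.63 CPM (SD, n = 4) to 140.0 ± 2.11 CPM. Cyc1 fell with LA (log2FC -0.27, SE 0.0684, adjusted p = 0.0022) and with ANGPTL4 (log2FC -0.30, SE 0.0699, adjusted p = 0.000941), where its 4 day 6 libraries were all below its 4 day 2 libraries. Sdha passed no test over time in any treatment (log2FC 0.030, -0.077 and 0.070 with vehicle, LA and ANGPTL4).

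In the ATP synthase, Atp5g1 had 36.9, 39.5, 43.8 and 31.7 CPM at day 2 with LA and 24.5, 21.2, 24.4 and 21.2 at day 6, without overlap (log2FC -0.75, SE 0.113, adjusted p = 6.45e-06). It also fell with ANGPTL4 (log2FC -0.49, SE 0.118, adjusted p = 0.00132), while with vehicle its log2FC was 0.050 (95% interval -0.19 to 0.29, adjusted p = 0.751). Atp5g3 fell with LA (log2FC -0.55, SE 0.112, adjusted p = 0.000516). Atp5a1 had means of 778 ± 63.9 CPM, 799 ± 36 CPM and 847 ± 15.4 CPM at day 2 with vehicle, LA and ANGPTL4 and 787 ± 21.3 CPM, 737 ± 30.1 CPM and 809.6 ± 17.1 CPM at day 6 (SD, n = 4), and no comparison of it passed the test.

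Some complex IV subunits come as a pair of genes, a form made in most tissues and one known from striated muscle, and their levels over days are given side by side, without a test of the difference within a pair. Cox7a1, the muscle form, had 0.442, 0.408, 0.604 and 0.907 CPM at day 2 and 2.7, 3.89, 1.54 and 3.11 at day 6 with vehicle. All day 6 libraries were above all day 2 libraries (log2FC 2.22, SE 0.341, adjusted p = 2.9e-06), at low levels of a few CPM. Its partner Cox7a2 had 70.0, 65.7, 55.7 and 60.1 CPM at day 6, which overlapped the day 2 libraries given above (log2FC 0.18, SE 0.0999, adjusted p = 0.153). Cox6a2 had 11.7, 12.4, 12.1 and 15.4 CPM at day 2 and rose (log2FC 0.68, SE 0.151, adjusted p = 0.000752), with no overlap, while its partner Cox6a1 had 48.1, 45.4, 40.8 and 53 and 53.4, 47, 39.2 and 42.2 CPM and passed no test (log2FC -0.043, SE 0.13, adjusted p = 0.811). Cox8b had 4.34, 3.99, 3.24 and 1.97 CPM at day 6 and rose (log2FC 1.10, SE 0.271, adjusted p = 0.00135), with replicate 4 inside the day 2 range. Its partner Cox8a had 70.8, 58.2, 58.2 and 68.9 and 67.8, 58, 53.5 and 46.6 CPM (log2FC -0.18, SE 0.132, adjusted p = 0.291).

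With ANGPTL4 the muscle forms Cox7a1 (log2FC 1.58, SE 0.336, adjusted p = 0.000276) and Cox6a2 (log2FC 0.70, SE 0.155, adjusted p = 0.000757) rose and the partners Cox6a1 (log2FC -0.58, SE 0.135, adjusted p = 0.0014) and Cox8a (log2FC -0.68, SE 0.135, adjusted p = 0.000383) fell. Cox8b rose (log2FC 0.69, SE 0.262, adjusted p = 0.0343), but not without any one of 6 of the 8 libraries, such as day 2 replicate 3 (adjusted p = 0.0911). With LA, Cox8a, Cox6a1 and Cox7a2 fell by 0.83, 0.62 and 0.63 on the log2 scale (adjusted p = 2.74e-05, 0.000468 and 1.26e-05), while Cox6a2 had 14.1, 16.9, 16 and 9.1 CPM at day 2 and 16.2, 13.5, 14.2 and 11.1 at day 6 (log2FC -0.052, SE 0.15, adjusted p = 0.806). With the length and GC trend removed, Cox6a2 was instead called as higher at day 6 with LA. Cox7a1 rose with LA (log2FC 0.89, SE 0.315, adjusted p = 0.0217), a call that ended without day 2 replicate 3 (adjusted p = 0.070) or day 6 replicate 3 (0.101).

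The share of a pair's counts taken by the muscle form does not depend on library scaling. For Cox6a2 of Cox6a2 and Cox6a1 it was 21.6% ± 1.51 with vehicle, 18.4% ± 1.74 with LA and 18.1% ± 1.24 with ANGPTL4 at day 2 (SD, n = 4). At day 6 it was 31.1% ± 1.18, 25.4% ± 2.22 and 34.7% ± 1.47 in the same order. The share for Cox7a1 was 1.04% ± 0.379 with vehicle at day 2 and 4.23% ± 1.29 at day 6, and that for Cox8b 2.39% ± 0.795 and 5.55% ± 1.04. At day 6, the share for Cox7a1 was 3.05% ± 0.933 with LA and 3.48% ± 1.33 with ANGPTL4, and that for Cox8b 4.55% ± 0.646 and 6.47% ± 1.45. The shares are described with no test, and counts of 3′ ends were not scaled by transcript length.

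**Figure D5:**
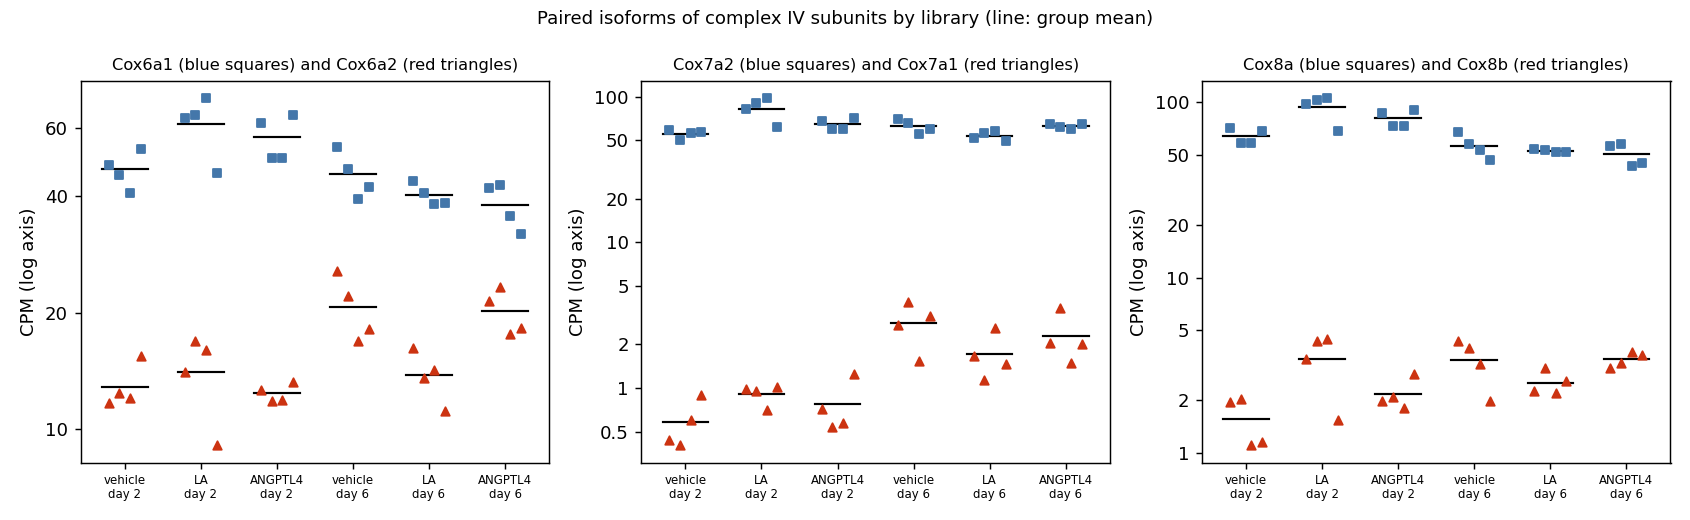
CPM (log axis) of 3 pairs of complex IV isoforms in each group (horizontal axis). Each point is 1 library, blue squares are the form of most tissues, red triangles the muscle form, and lines are group means. The muscle forms have higher means at day 6 than at day 2 with vehicle, and Cox6a2 at day 6 is lower with LA than with vehicle.

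Other genes of the pathway were read from fixed lists. At day 2 with LA, where 8.27% of all genes rose, 11 of 47 assembly factors rose and 0 fell (median log2FC 0.14), as did 4 of 15 electron carriers (median 0.14), while 1 of 14 enzymes of the tricarboxylic acid cycle rose (median 0.038) and 1 of 21 regulators of mitochondrial biogenesis (median 0.042). Of 23 genes of mitochondrial import 9 rose and 1 fell, of 78 mitochondrial ribosomal proteins 31 rose, of 36 proteasome subunits 11, and of 81 cytosolic ribosomal proteins 62 (median 0.57). Over days with LA, where 20.7% of all genes fell, 72 of 81 cytosolic ribosomal proteins fell (median -0.58), 36 of 78 mitochondrial ones and 15 of 47 assembly factors. With vehicle, where 25.2% of all genes rose and 20.5% fell, 14 of 47 assembly factors rose and 2 fell. Of 21 muscle genes (contractile, energy, fusion and regulatory), 16 rose and 3 fell (median 0.67). The 21 include all of the myogenic markers above but Cdh15, so the counts of these lists overlap. At day 6 with LA, where 9.38% of all genes fell, 19 of these 21 fell (median -0.35), 4 of 47 assembly factors and 0 of 81 cytosolic ribosomal proteins (edgeR, 0 with an unadjusted p under 0.05).

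Libraries of one group also differed in the members together. Within groups, the members' mean and that of the cytosolic ribosomal proteins had a Pearson r of 0.965 over 24 libraries (deviations from group means), with 0.957 for the mitochondrial ribosome, 0.834 for assembly factors, 0.385 for muscle genes and 0.061 for biogenesis regulators. All points share their library, so this is a description. Of the 82 members, 37 had an r over 0.8 with the mean of the others and 7 an r under 0.2 (median 0.76). Uqcrc2, Ndufs1 and Cox7a2l were among the lowest, with r of -0.036, 0.014 and 0.037. The genes of the lists most like Ndufs1 were Uqcc1 (r = 0.70), Foxred1 (0.63) and Myh1 (0.59), and those most like Cox7a2 were Atp5j (0.93), Uqcr10 (0.92) and Atp5md (0.92), over the same 24 libraries. The median coefficient of variation of the members within a group was 18.7% for LA at day 2 and 10.4% for vehicle at day 2.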

How the data were processed

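Libraries of 3′ ends were made by QuantSeq from total RNA, per the labels' protocols. The authors deposited raw counts, whole numbers per gene symbol, and the lowest total of a gene over 24 libraries was 51. HTSeq 0.9.1, STAR 2.7.1a, Trimmomatic, DESeq and DESeq2 are named with the build mm39, per the submitters' processing notes, without order or settings. How the table was filtered, and the counting and strand settings, are not given in the sources used here, so members with near-identical copies (Ndufa11 and Ndufa11b, or small subunits with processed pseudogenes) and overlapping genes are uncertain.

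Counts were filtered with filterByExpr in edgeR 4.0.16 (R 4.3.3), which left 12994 genes and removed 1699, scaled by TMM, and fitted for all 24 libraries as 6 group means with robust quasi-likelihood (18 residual degrees of freedom, biological coefficient of variation 6.51%). CPM values use TMM-scaled totals, and the log2 CPM behind the members' means used a prior count of 2. SE values are approximations: each log2FC divided by the square root of its F statistic. The 11 comparisons and their adjustment are those given in the report. Transcript lengths and GC content were taken for 14319 genes, 79 of 82 members among them, from gene models of a different mouse assembly, and no mm39 coordinates are given. The longest transcript of a gene was used, a protein-coding one where there was one. GC content is that of its last 500 nt. A shorter transcript may be the main one in these cells.

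Named members were the core and catalytic set, the isoform pairs and Cox7a2l, and per comparison the 5 highest and 5 lowest called log2FC at 5 CPM or more and the largest called change of each complex. A subset is printed, to cover the roles, and 1 member's results are not reported here. Named outside it, after their values were seen, were Uqcrh, Uqcr10 and Uqcrq at day 2, Ndufb2 for its length, and Ndufs4 and Ndufc1 over days with LA. The members, lists and tests were chosen with earlier results of these data known.

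Alternatives were DESeq2 size factors, library totals alone, no filter, a filter of 5 CPM in 4 libraries, DESeq2 1.42.0, limma-voom (limma 3.58.1), only the compared groups, the replicate number as a block, removal of length and GC trends (mgcv 1.9.3) alone and with the block, and each library left out. The edgeR script was run on simulated counts, independent between genes and with the same spread for all. They held no shift shared by the genes of a library, so they do not cover that feature of these data.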

Additional observations from a re-analysis of the deposited data

Results flagged for a closer look

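Single libraries stood far from the other 3 of their group in 12 of 312 group values by Dixon's criterion at 95%, which compares the gap to the nearest library with the whole range. The values were those of named members, the mean of all members and their share of counts. Chance alone flags about 1 in 20 groups. Low values were Atp5c1 in day 6 ANGPTL4 replicate 4 (249 CPM, others 256 to 257), Atp5d in day 2 vehicle replicate 4 (97.7 CPM, others 126 to 131), Atp5g2 in day 2 LA replicate 4 (25.8 CPM, others 52.9 to 57.3), Atp5pb in day 2 vehicle replicate 2 (179 CPM, others 234 to 242), Cox5a in day 2 LA replicate 4 (68.6 CPM, others 105 to 110.0), Cox7c in day 2 vehicle replicate 2 (15.5 CPM, others 24.2 to 25.4), Cox7c in day 2 LA replicate 4 (18.9 CPM, others 49.6 to 54.5), Ndufs1 in day 6 ANGPTL4 replicate 3 (174 CPM, others 188 to 190.0) and Uqcrfs1 in day 2 ANGPTL4 replicate 1 (103 CPM, others 115 to 116). High values were Cox4i1 in day 6 vehicle replicate 1 (190.2 CPM, others 167 to 169), Ndufa3 in day 2 vehicle replicate 3 (9.26 CPM, others 8.15 to 8.25) and Ndufa3 in day 2 ANGPTL4 replicate 4 (14.2 CPM, others 9.47 to 10.2).

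The effect of LA on the log2 scale was lower at day 6 than at day 2 by the test of the difference for 29 of the members examined, among them in complex I Ndufa3 (-1.28), Ndufa4 (-0.80), Ndufc1 (-1.41), Ndufs3 (-0.68), Ndufv1 (-0.37) and Ndufv2 (-0.25), in complex II Sdhb (-0.40), Sdhc (-0.45) and Sdhd (-0.30), in complex III Cyc1 (-0.45), Uqcr11 (-0.91), Uqcrc1 (-0.25) and Uqcrfs1 (-0.33), in complex IV Cox4i1 (-0.32), Cox5a (-0.82), Cox5b (-1.18), Cox6a1 (-0.58), Cox6a2 (-0.73), Cox7a1 (-1.34), Cox7a2 (-0.80), Cox8a (-0.66) and Cox8b (-1.63) and in complex V Atp5b (-0.27), Atp5e (-1.21), Atp5g1 (-0.80), Atp5g3 (-0.87), Atp5k (-1.25) and Atp5md (-1.19). The effect of ANGPTL4 was lower at day 6 for Cyc1 (-0.48).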

How the results depend on the processing

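All alternatives ran, and 2 were chosen after seeing the data: leaving out day 2 LA replicate 3 and day 6 ANGPTL4 replicate 1, 2 of the 4 libraries that stood apart, and thinning every library to the smallest total. Of 8490 comparisons of a named member's value with its main value, 7706 kept direction and side of the threshold, 633 lost the call, 143 gained one and 8 reversed. The reversals came with the length and GC trend removed, alone and with the replicate block: from day 2 to day 6 with LA, Atp5o 0.0089 and 0.0097, Cox4i1 0.0080 and 0.0074, Cox6a2 0.26 and 0.26, and for the between-day difference of LA, Cox4i1 0.041 and 0.041. Cox6a2, not called in the main fit, was called as higher at day 6 in both of these fits. With only the compared groups in the fit, members called were 7 (LA day 2), 22 (LA day 6), 4 and 1 (ANGPTL4 day 2 and day 6), 24 (LA against ANGPTL4 day 6) and 39 (days with LA), by fewer libraries and a spread of their own. With length and GC trends removed they were 28 (LA day 2, median 0.22), 3 (ANGPTL4 day 2), 32 (days with LA, median -0.17), 40 (LA difference, median -0.35) and 0 (ANGPTL4 difference). With the replicate block and these trends together they were 24 (0.22), 3, 30 (-0.16), 39 (-0.35) and 0. With library totals alone they were 5 (LA day 6), 4 (LA against ANGPTL4 day 6) and 18 (days with vehicle). Without the filter 5 were lower with LA than ANGPTL4 at day 6. DESeq2 called 1 (ANGPTL4 day 6), 1 (LA against ANGPTL4 day 2) and 5 (ANGPTL4 difference), and limma-voom 1 and 0 for the last 2. Without these 2 libraries, 24 rose with LA at day 2. Thinned, 7 (LA day 6), 6 (ANGPTL4 day 2) and 5 (LA against ANGPTL4 day 6) were called. Counts of these fits are given without a matching share over all genes. They do not show whether the members or all genes gained or lost calls. The cause of these moves was not tested beyond what the settings state. Leaving out 1 library gave 26 to 65 members (median 0.36 to 0.55) for LA day 2, 2 to 13 members (median -0.21 to -0.11) for LA day 6, 4 to 9 members (median 0.16 to 0.23) for ANGPTL4 day 2, 0 to 0 members (median -0.073 to 0.058) for ANGPTL4 day 6, 0 to 38 members (median 0.16 to 0.33) for LA against ANGPTL4 day 2, 2 to 6 members (median -0.15 to -0.12) at day 6, 14 to 33 members (median 0.15 to 0.25) for days with vehicle, 42 to 67 members (median -0.49 to -0.30) with LA, 11 to 15 members (median -0.067 to 0.014) with ANGPTL4, 44 to 66 members (median -0.70 to -0.49) for the LA difference and 0 to 1 members (median -0.29 to -0.16) for the ANGPTL4 difference.

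The replicate numbers did not pair the libraries: deviations of same-numbered libraries had correlations of -0.17 to 0.18, and 12 of 36 library pairs correlated best with their own number. With the replicate block alone 53 members were called for LA day 2, 10 for LA day 6 and 0 for the ANGPTL4 difference. Precision is limited by 4 libraries a group and, for Cox7a1 and Cox8b, by levels of a few CPM.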
